A study of Homo sapiens with 9 samples.

Results

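Mitochondrial fatty acid oxidation was described through 10 genes chosen by name for their place in the carnitine shuttle and in the spiral of beta-oxidation, namely CPT1A, CPT2, ACADVL, ACADM, ACADS, HADHA, HADHB, ECHS1, HADH and ETFA. All 10 had values in each of the 9 libraries, among the 22290 genes of the deposited table. The RNA is labelled as coming from IMR-32, a human cell line established from a neuroblastoma, as parental cells of genotype WT, as cells labelled TRAP-1 knockdown (KD) and as cells labelled TRAP-1 overexpression (OE), with 3 libraries per group. TRAP-1 is a chaperone of the HSP90 family that resides in the mitochondrial matrix. The modified cells had been made in earlier work, the constructs and whether either line is 1 clone are not given in the sources used here, and a vector-only control was not analysed here. The RNA was isolated in triplicate and nothing states that the triplicates were separate cultures, so the p-values measure only the spread between these libraries, which may be technical. Each value is a regularized log2 value (rlog), a read count adjusted for library size, put on the log2 scale and shrunken toward the mean of its gene, so a difference between rlog values understates the change of the counts, most strongly for genes with few reads. The study gives a nominal coverage, the depth of each library was not available, and rlog values do not keep it.

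Long-chain fatty acids reach the mitochondrial matrix as acylcarnitines, made on the outer membrane by CPT1 and turned back into acyl-CoA on the inner membrane by CPT2. In the matrix each turn of beta-oxidation runs through an acyl-CoA dehydrogenase, an enoyl-CoA hydratase, a hydroxyacyl-CoA dehydrogenase and a thiolase, with different enzymes for long, medium and short chains, and the electrons taken by the dehydrogenases pass through the electron transfer flavoprotein to ubiquinone. Inherited defects of these enzymes present with hypoketotic hypoglycaemia and with damage to liver, heart and muscle, and the pathway is most active in those organs during fasting, while neurons are known to use it little.

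TRAP1 (ENSG00000126602, chromosome 16 from 3651639 to 3717553, minus strand of GRCh38) was examined first, as the gene that the labels name. Its rlog values were 10.67, 10.66 and 10.65 in the parental libraries, 10.79, 10.79 and 10.83 in the libraries labelled KD and 10.67, 10.63 and 10.74 in the libraries labelled OE. All 3 libraries labelled KD lay above all 3 parental libraries, and the libraries labelled OE overlapped the parental ones. The difference from parental was 0.14 in the libraries labelled KD (SE 0.025, limma adjusted p = 1.8e-05) and 0.018 in the libraries labelled OE (adjusted p = 0.643 from limma, 95% confidence interval -0.033 to 0.069). With the median difference of genes in the same 20-Mb block removed, the difference under OE was 0.064 and was called (adjusted p = 0.0346 from limma), and that under KD was 0.13. TRAP1 RNA thus ran against the label KD and was called higher under the label OE only with block medians removed, and KD and OE are used below only as the labels of libraries, wherever a direction is given. Of the exonic bases of TRAP1, 28.5% are shared with other annotated genes, and how reads in shared bases were counted is not given in the sources used here.

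The labelled cell line was compared with markers of sympathetic neuroblastoma. Of 15 such genes 11 had values, and 5 of these had a mean rlog under 5. MYCN, which is known to be amplified in IMR-32, was listed between 2.46 and 2.61 over the 9 libraries, TH between 2.65 and 2.85 and PHOX2A between 1.30 and 1.40. ISL1, with a mean of 9.37, was the most abundant gene of the list in the parental group, while DBH, STMN2 and ELAVL4 were not analysed here. The mean rlog of ISL1, GATA2 and NEFL was 8 or more, and that of GATA3, HAND2 and CHGB lay between 5 and 8. The summed level of the 11, taken back from the log2 scale, was 2172, 2172 and 2144 in the parental libraries, 1976, 1976 and 2023 under the label KD and 2273, 2373 and 2377 under the label OE. Without NEFL, called higher under OE by 0.53, the sums were 1636, 1597 and 1608, 1486, 1469 and 1506, and 1502, 1589 and 1550 in the same order of groups. Under KD 6 of the 11 were called lower (TH, CHGA, ISL1, GATA2, NEFL and CHGB) and 2 higher (MYCN 0.081 and NEFM 0.17), and under OE TH (-0.15) and CHGB (-0.18) were called lower. Of all 22290 genes, 53.7% were called under KD (26.9% lower and 26.9% higher) and 34.8% under OE (18.0% lower and 16.9% higher). These counts are not read as a result about the list. The call of MYCN was lost without parental replicate 2 (0.055). That of CHGB under KD was lost without parental replicate 1 (-0.060), KD replicate 1 (-0.11), KD replicate 2 (-0.14) or KD replicate 3 (-0.12), without the variance trend and with block medians removed (0.020), and that under OE without parental replicate 1 (-0.11) and with block medians removed (-0.024). The low values of MYCN, TH and PHOX2A go against the labelled cell line, which the study describes as authenticated.

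Markers of other cell types were read in the same way, and no cell type name was drawn from them. Of 6 Schwann and glial markers 4 had values, led by ERBB3 (parental mean 13.98), and their summed level was 20393, 20213 and 19959 in the parental libraries, 23862, 24129 and 23651 in the libraries labelled KD and 22429, 22584 and 22716 in the libraries labelled OE. ERBB3 was called higher under KD (0.31) and under OE (0.13). Of 10 mesenchymal and fibroblast markers 9 had values, 6 of them with a mean rlog under 5, led by PRRX1 (parental mean 11.70), with sums of 4064, 4313 and 4331 in the parental libraries, 9222, 9213 and 9193 under the label KD and 6428, 6397 and 6424 under the label OE. Under KD 3 of these 9 genes were called, PRRX1 (1.29) and TWIST1 (0.43) higher and LUM (-0.18) lower, and under OE the same 3 were called higher (0.69, 0.28 and 0.22). The shares called over all genes were 53.7% under KD and 34.8% under OE. Of 12 epithelial markers 9 had values, 3 of them under a mean rlog of 5, led by KRT18 (parental mean 12.06), with sums of 6756, 6755 and 6701, of 7017, 7213 and 7272, and of 6149, 6097 and 6130 in the same order of groups. These went both ways, with KRT8 (0.39) and DSP (0.37) called higher and KRT7 (-0.27) lower under KD, and KRT8 (0.40) called higher and CLDN4 (-0.57), DSP (-0.19) and KRT18 (-0.096) lower under OE. Blood cell markers summed to between 20 and 23 in every library (2 of 5 genes with values) and hepatocyte markers to 13 in each (3 of 6), with all 5 of these genes under a mean rlog of 5 and ALB not analysed here. The part of these markers in the differences described below was not tested.

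Promoter sequence was available for all 10 genes in 12 windows of RefSeq (GRCh38.p14), each from 250 bases before to 50 bases after a start site. HADHA and HADHB, which encode the subunits of 1 enzyme, start on opposite strands of chromosome 2 at 26244632 and 26244939, with 306 bases between the start sites, and their windows share 194 bases. The longest stretch of the HADHA window that no annotated exon of GENCODE release 44 covers lies between the start sites. It is shown because the RNA levels of HADHA and HADHB are compared below. For CPT2, the gene with the widest range of group means, the part of its window that no exon covers is shown beside it. Both are on the plus strand of GRCh38.p14, at chr2:26244673-26244747 and at chr1:53196574-53196791, and capitals mark the GC box GGGCGG.
HADHA and HADHB: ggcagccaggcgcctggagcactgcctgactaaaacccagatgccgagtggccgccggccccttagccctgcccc
CPT2: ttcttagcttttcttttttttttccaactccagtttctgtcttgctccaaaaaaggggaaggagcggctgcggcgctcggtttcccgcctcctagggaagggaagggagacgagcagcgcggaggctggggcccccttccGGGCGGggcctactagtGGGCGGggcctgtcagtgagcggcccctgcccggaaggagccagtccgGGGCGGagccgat
The CPT2 stretch held 3 GC boxes in its 218 bases, and the 75 bases shown for HADHA and HADHB held none of the motifs searched. The rest of the interval between their start sites held GC boxes, at -64 and -28 from the start of HADHB.

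The whole windows were searched on both strands for 7 motifs. The GC box GGGCGG was found in 9 of the 12 windows, against 44.9% of 34943 windows of all genes. These 9 belong to all genes but CPT1A, the only box in the window of HADHA is the same site as 1 of the 2 in that of HADHB, and the ECHS1 window held 6 copies. The CCAAT box CCAAT was found in ETFA (2 copies, 1 of them overlapping a GC box) and HADH (1 copy), against 34.6% of all windows, and the TATA box TATAAA in 1 of the 2 ACADVL windows, against 11.6%. The nuclear receptor half-site AGGTCA, the element of PPAR and RXR dimers (that half-site repeated in the same direction after 1 base of any kind), the ERR element TCAAGGTCA, which contains the half-site, and the NRF1 element (GCGCA followed at once by its reverse complement) were in none of the 12 windows, against 13.8%, 0.0229%, 0.355% and 1.23% of all windows. A match is a string of letters and no measurement of binding, and the absence of a string says only that these letters are not in the window.

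Levels were compared between genes as normalized reads per kb of the canonical transcript, taken back from the log2 scale. ACADVL, the dehydrogenase for very long chains, stood highest at 6983 reads per kb in the parental group mean, followed by ECHS1 at 3811, HADHB at 2637, HADHA at 2482, ETFA at 1455, ACADM at 1104 and HADH at 754. CPT1A was at 493, ACADS at 163 and CPT2 lowest at 116. No neighbouring genes in this order had overlapping parental libraries, and the closest pair was HADHB and HADHA, with a log2 gap of 0.087. The order depends on the length used: per kb of all merged exons ECHS1 was first, HADHA stood above HADHB and CPT1A rose to place 5. Over all genes, a mean rlog as high as that of ACADVL (13.94) lay at percentile 98.6, and that of CPT2 (8.34) at percentile 57.2. Together the 10 genes made up 0.123%, 0.123% and 0.122% of the summed values of the parental libraries, 0.126%, 0.127% and 0.126% under the label KD and 0.126%, 0.126% and 0.127% under the label OE.

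**Figure D1:**
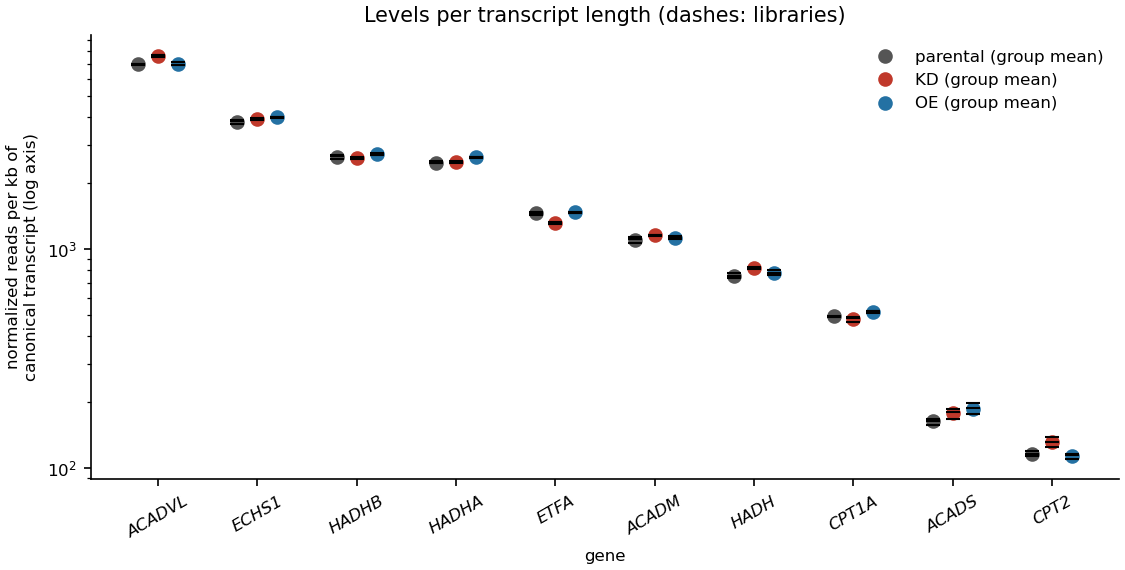
Normalized reads per kb of canonical transcript (vertical log axis) for the 10 genes, ordered by their parental level, with circles for group means and dashes for the 3 libraries of each group. ACADVL (6983 in the parental mean) and CPT2 (116) are at the ends of the order, and the groups lie close together within every gene.

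Differences between groups were small in all 10 genes, with none beyond 0.21 in either direction on the rlog scale. Against parental, the libraries labelled KD had 7 of the 10 genes called at an adjusted p under 0.05, where 53.7% of all 22290 genes were called. Of these, CPT2, ACADVL, HADH, ACADS, ACADM and ECHS1 were higher (6 of 10, against 26.9% of all genes) and ETFA was lower (1 of 10, against 26.9%). In 7 of 10 genes the libraries did not overlap those of the parental cells, which held for 59.2% of all genes. In the libraries labelled OE, 4 of 10 genes were called, where 34.8% of all genes were: ACADS, HADHA, CPT1A and ECHS1, all higher (16.9% of all genes were called higher, and none of the 10 was lower against 18.0%). These 4 were also the genes whose libraries did not overlap, against 43.2% of all genes.

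Between the modified lines, 7 of 10 genes were called (47.3% of all genes), with ETFA, CPT1A, HADHA and HADHB higher under the label OE (4 of 10, against 23.5%) and CPT2, ACADVL and HADH lower (3 of 10, against 23.8%). The libraries did not overlap in 9 of 10 genes, against 54.1% of all genes. The median difference over the 10 genes was 0.055 for KD, 0.045 for OE and 0.042 for OE against KD, beside -0.00051, 0.00039 and 0.00078 over all genes. The share of called genes rises with the level, and among the 9956 genes whose mean rlog was 8 or more, a range that holds all 10 and was chosen after seeing the data, 75.8%, 56.7% and 68.3% were called in these comparisons. The members' total counts of called genes were thus near or below this background. Shares by direction, and of groups without overlap, were not computed for genes at this level. None of these counts is read as a result about the set. The comparisons share their libraries pairwise, so their calls are not independent of each other. In bulk RNA, fewer cells of a type and less RNA per cell cannot be told apart.

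**Figure D2:**
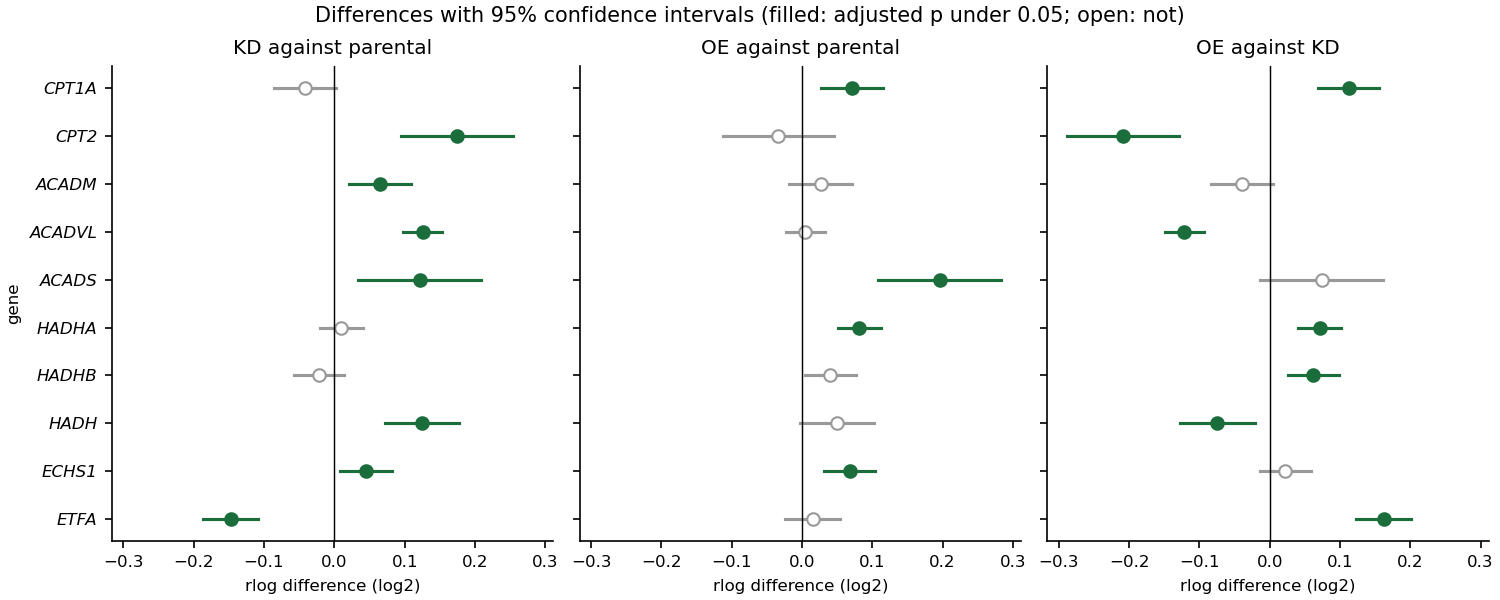
Rlog differences (horizontal axis, log2) of the 10 genes in the 3 comparisons, with 95% confidence intervals from limma, filled where the adjusted p was under 0.05. In the first panel CPT2 and ACADVL lie to the right of 0 and ETFA to the left, while in the second panel ETFA, CPT2 and ACADVL have intervals that include 0.

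The carnitine shuttle was represented by its transferases. CPT1A (ENSG00000110090, chromosome 11 from 68754620 to 68844410, minus strand) encodes the liver form of the outer-membrane enzyme, the step that malonyl-CoA inhibits. Its rlog values were 11.34, 11.33 and 11.33 in the parental libraries, 11.33, 11.25 and 11.30 in those labelled KD and 11.39, 11.41 and 11.41 in those labelled OE. The libraries labelled OE were the highest 3 of the 9, and those labelled KD lay at or below the parental ones without overlap, by a gap that vanishes on rounding for replicate 1. CPT1A was higher by 0.071 under the label OE (SE 0.021, limma adjusted p = 0.00881), and by 0.11 in OE against KD (adjusted p = 4.4e-05 from limma). Its difference in the libraries labelled KD was -0.042 and was not called (adjusted p = 0.104 from limma), but it was called without KD replicate 1 (-0.059), with adjusted p from 0.0335 to 0.521 over its 16 alternatives.

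CPT2 (ENSG00000157184, chromosome 1 from 53196792 to 53214197, plus strand) encodes the inner-membrane transferase. It was listed at 8.29, 8.34 and 8.26 in the parental libraries, at 8.46, 8.54 and 8.40 under the label KD and at 8.22, 8.29 and 8.28 under the label OE. All 3 libraries labelled KD were above the other 6, and the libraries labelled OE overlapped the parental ones. The increase in the libraries labelled KD was 0.17, or 12.9% on the scale of the shrunken values (SE 0.039, limma adjusted p = 2.8e-04), the largest of the 10 genes in that comparison. Against the libraries labelled KD those labelled OE were lower by a difference of -0.21 (SE 0.039, limma adjusted p = 3.6e-05), whereas OE and parental differed by -0.034 (95% confidence interval -0.11 to 0.046). CPT2 shares 12.4% of its exonic bases with CZIB and an antisense RNA, and the library kit does not mark the strand.

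**Figure D3:**
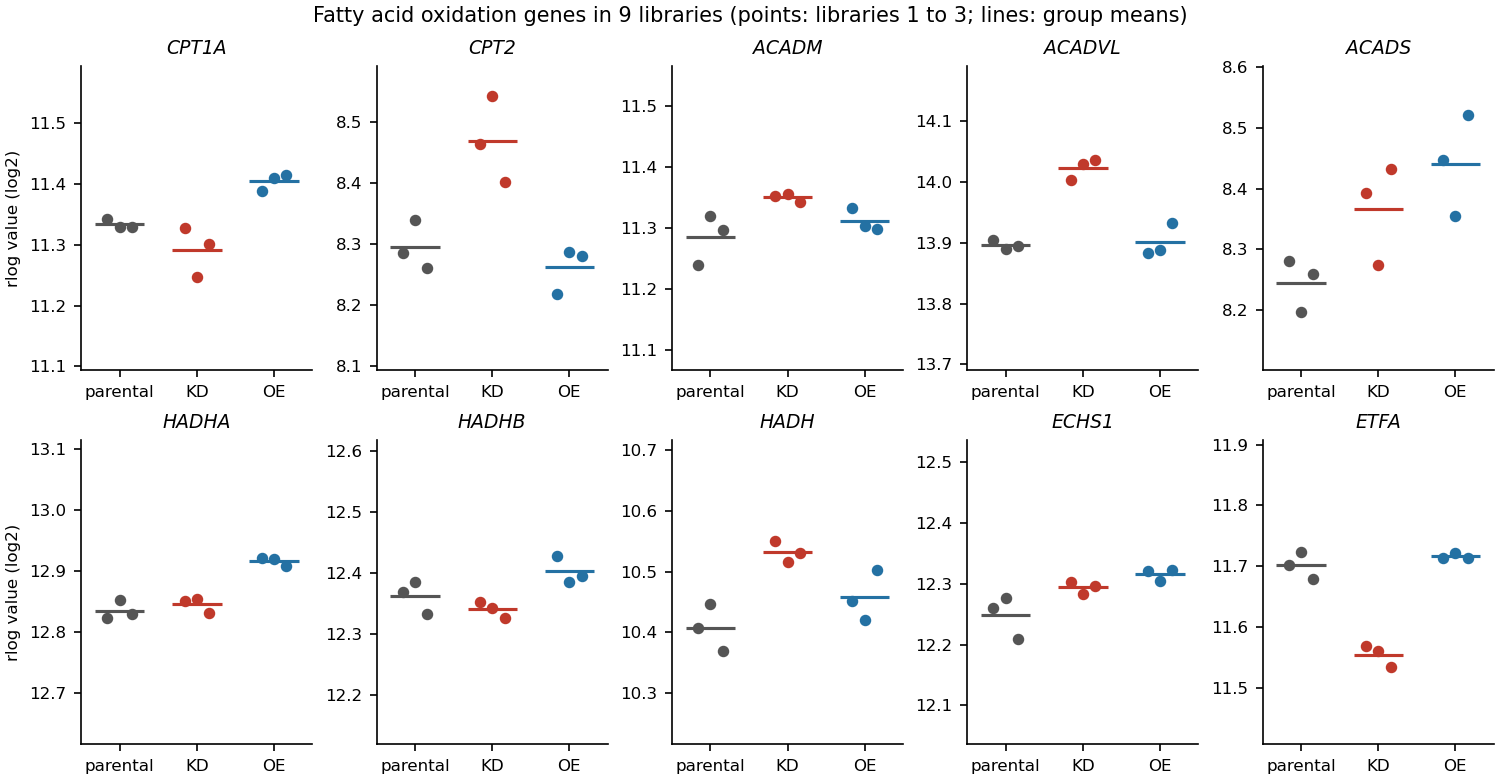
Rlog values (vertical axes, log2, each spanning the same width of 0.5) of the 10 genes in the 9 libraries, with points for libraries 1 to 3 of each group and lines for group means. The libraries labelled KD stand apart from the other 6 upward in CPT2, ACADVL, HADH and, narrowly, ACADM and downward in ETFA and, by a gap too small to see, CPT1A, and those labelled OE stand apart upward in CPT1A, HADHA and, narrowly, ECHS1.

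The acyl-CoA dehydrogenases open each turn of the spiral and differ in the chain length they accept. ACADVL (ENSG00000072778, chromosome 17 from 7217125 to 7225266, plus strand) acts on very long chains at the inner membrane. Its rlog values were 13.905, 13.890 and 13.895 in the parental libraries, 14.002, 14.029 and 14.036 in those labelled KD and 13.882, 13.889 and 13.932 in those labelled OE. Only the libraries labelled KD stood apart, with all 3 above the other 6. ACADVL was higher by 0.13 under the label KD (SE 0.014, limma adjusted p = 1.4e-09) and lower by a difference of -0.12 in OE against KD (adjusted p = 4.2e-09 from limma). Its difference under the label OE was 0.0044 (95% confidence interval -0.023 to 0.032).

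ACADM (ENSG00000117054, chromosome 1 from 75724431 to 75787575, plus strand) encodes the medium-chain dehydrogenase, the enzyme of the most frequent inherited defect of the pathway. Its values were 11.24, 11.32 and 11.30 in the parental libraries, 11.35, 11.36 and 11.34 under KD and 11.33, 11.30 and 11.30 under OE. The libraries labelled KD were the highest 3, and those labelled OE overlapped the parental ones. The increase under the label KD was 0.065 (SE 0.022, limma adjusted p = 0.0111) and rested in part on parental replicate 1, without which it was 0.043 and not called (adjusted p from 0.00223 to 0.124 over its 16 alternatives). The difference of OE against KD, -0.039, was called only with block medians removed (-0.058). ACADM shares 11.0% of its exonic bases with RABGGTB and a pseudogene.

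ACADS (ENSG00000122971, chromosome 12 from 120725774 to 120740008, plus strand) encodes the short-chain dehydrogenase. It was listed at 8.28, 8.20 and 8.26 in the parental libraries, at 8.39, 8.27 and 8.43 under the label KD and at 8.45, 8.36 and 8.52 under the label OE. The libraries labelled OE all lay above the parental ones, while KD replicate 2 fell inside the parental range and the KD and OE libraries overlapped. ACADS had the largest increase of the 10 genes under the label OE, 0.20 (SE 0.043, limma adjusted p = 4.3e-04). Its increase under the label KD, 0.12, was called (adjusted p = 0.0170 from limma), but not without KD replicate 1 (0.11), KD replicate 3 (0.088) or parental replicate 2 (0.097), nor without the variance trend or with quantile normalization (adjusted p from 3.7e-04 to 0.119 over its 16 alternatives). The difference of OE against KD, 0.074, was called only without OE replicate 2 (0.12, adjusted p from 0.0383 to 0.658 over its 16 alternatives by limma).

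The trifunctional protein at the inner membrane carries the later steps for long chains, with the hydratase and the dehydrogenase on the alpha subunit HADHA (ENSG00000084754, chromosome 2 from 26190635 to 26244672, minus strand) and the thiolase on the beta subunit HADHB (ENSG00000138029, chromosome 2 from 26243170 to 26290465, plus strand). HADHA was listed at 12.82, 12.85 and 12.83 in the parental libraries, at 12.85, 12.85 and 12.83 under KD and at 12.92, 12.92 and 12.91 under OE. HADHB was listed at 12.37, 12.39 and 12.33, at 12.35, 12.34 and 12.33 and at 12.43, 12.39 and 12.40 in the same order. In both genes the libraries labelled OE lay above those labelled KD, and in HADHA also above the parental ones, while the KD and parental libraries overlapped.

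HADHA was higher under the label OE by 0.081 (SE 0.015, limma adjusted p = 5.1e-05), and the difference of HADHB, 0.040, was not called (adjusted p = 0.0780 from limma). HADHB was called there without parental replicate 2 (0.052), with only the genes whose mean rlog was 5 or more and with quantile normalization (adjusted p from 0.0427 to 0.348 over its 16 alternatives). In OE against KD both were called, with differences of 0.071 for HADHA and 0.062 for HADHB (adjusted p = 1.8e-04 and 0.00397 from limma). In KD against parental they differed by 0.010 (95% confidence interval -0.021 to 0.041) and -0.022 (-0.058 to 0.014). Within a library, the rlog value of HADHA minus that of HADHB was 0.45, 0.47 and 0.50 in the parental cells, 0.50, 0.51 and 0.51 under the label KD and 0.49, 0.53 and 0.51 under the label OE. This gap between the subunits, which is not corrected for length, moved by less than 0.1 over the 9 libraries. GENCODE lists 2 pseudogenes named for HADHA and 1 for HADHB, and reads that fit both a gene and its copy make these values less certain.

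ECHS1 (ENSG00000127884, chromosome 10 from 133362485 to 133373354, minus strand) is the hydratase for short chains. Its rlog values were 12.26, 12.28 and 12.21 in the parental libraries, 12.30, 12.28 and 12.30 under the label KD and 12.32, 12.30 and 12.32 under the label OE. Both sets lay above the parental libraries, although KD replicate 2 and parental replicate 2 both round to 12.28. ECHS1 was higher by 0.068 under OE (SE 0.018, limma adjusted p = 0.00313) and by 0.045 under KD (SE 0.018, limma adjusted p = 0.0339). The smaller of these calls was lost without KD replicate 1 (0.041), without KD replicate 3 (0.044), without parental replicate 3 (0.025) and under 3 other alternatives (adjusted p from 0.0128 to 0.269 over its 16 alternatives). The call under OE was lost with the median of its chromosomal neighbours removed, where the difference was 0.041.

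HADH (ENSG00000138796, chromosome 4 from 107989714 to 108035241, plus strand) is the hydroxyacyl-CoA dehydrogenase for medium and short chains. Its values were 10.41, 10.45 and 10.37 in the parental libraries, 10.55, 10.52 and 10.53 in those labelled KD and 10.45, 10.42 and 10.50 in those labelled OE. The libraries labelled KD stood above the other 6, and those labelled OE overlapped the parental ones. HADH was higher by 0.12 under the label KD (SE 0.026, limma adjusted p = 1.3e-04). The 40 genes of its 20-Mb block whose mean rlog was 8 or more had a median difference of 0.067, and with such medians removed the difference of HADH was 0.058 and no longer called (adjusted p from 5.6e-05 to 0.0604 over its 16 alternatives). In OE against KD the difference was -0.075 (adjusted p = 0.0180 from limma). It was not called with block medians removed (-0.039), without KD replicate 1 (-0.066) or without OE replicate 2 (-0.056), with adjusted p from 0.00448 to 0.228 over its 16 alternatives.

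ETFA (ENSG00000140374, chromosome 15 from 76188555 to 76311730, minus strand) encodes the alpha subunit of the electron transfer flavoprotein, which takes electrons from all the acyl-CoA dehydrogenases named. Its rlog values were 11.70, 11.72 and 11.68 in the parental libraries, 11.57, 11.56 and 11.53 in those labelled KD and 11.71, 11.72 and 11.71 in those labelled OE. The 3 libraries labelled KD lay below the other 6, and those labelled OE fell inside the parental range. ETFA was the only one of the 10 genes called lower under the label KD, by a difference of -0.15 (SE 0.019, limma adjusted p = 6.8e-08), and it had the largest positive difference in OE against KD, 0.16 (adjusted p = 1.3e-08 from limma). Under the label OE its difference from parental was 0.015 (95% confidence interval -0.024 to 0.054). ETFDH, the oxidoreductase that passes these electrons on to ubiquinone, was at 9.76, 9.84 and 9.74 in the parental libraries, at 9.69, 9.66 and 9.72 under KD and at 9.80, 9.79 and 9.81 under OE.

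The libraries labelled KD were the lowest 3 for ETFDH as well. Its difference from parental was -0.091 (SE 0.029, limma adjusted p = 0.00867), which was not called without KD replicate 2 (-0.076) or without parental replicate 2 (-0.060). ETFB, the partner subunit of ETFA, was listed between 2.14 and 2.20 in all 9 libraries, and no difference of ETFB was called. The annotation places another protein-coding gene, ENSG00000269403, over part of ETFB, with 6.39% of the exonic bases of ETFB shared, and the annotation release used for counting is not given in the sources used here.

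Genes around the 10 enzymes were read from 8 lists, and their counts stand beside the shares of all genes given above. Of 15 other genes of acyl-CoA synthesis and the shuttle 12 had values, with 4 higher and 5 lower under the label KD, 4 and 3 under OE, and 6 and 4 in OE against KD. SLC25A20, the carrier that exchanges acylcarnitine for carnitine between CPT1 and CPT2, was at 9.53, 9.46 and 9.51 in the parental libraries, at 9.15, 9.06 and 9.09 under KD and at 9.47, 9.51 and 9.49 under OE. It was lower in all 3 libraries labelled KD, by a difference of -0.40 (SE 0.031, limma adjusted p = 5.8e-13), where the genes of its block had a median of -0.30. The fatty acid transport protein SLC27A1 and its relative SLC27A3 had the largest increases under KD (0.60 and 0.39), and another relative, SLC27A4, and the carnitine acetyltransferase CRAT the largest decreases (-0.72 and -0.62).

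Among genes of that list whose libraries did not overlap the parental ones, the largest increases under the label OE were those of the acyl-CoA synthetase ACSL4 (0.14) and SLC27A3 (0.11), and the largest decreases those of SLC27A4 (-0.29) and ACSL1 (-0.19). The call of SLC27A3 was lost without OE replicate 2 (0.087), parental replicate 2 (0.093) or parental replicate 3 (0.093), and that of ACSL4 with block medians removed (0.034). Between the modified lines, with OE set against KD, CRAT (0.72) and SLC27A4 (0.43) increased most and SLC27A1 (-0.46) and SLC27A3 (-0.28) decreased most.

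Of 18 other genes of mitochondrial beta-oxidation 15 had values, with 7 higher and 3 lower under KD, 2 and 2 under OE, and 4 and 3 in OE against KD. ECH1, an isomerase for unsaturated chains, increased most under KD (0.25), followed by the thioesterase ACOT13 (0.14, not called with block medians removed), and the thioesterase ACOT9 (-0.33) and MCAT, a transferase of mitochondrial fatty acid synthesis (-0.17), decreased most. The thiolase ACAA2 was higher under OE by 0.098, a call lost without OE replicate 1 (0.064) or parental replicate 1 (0.084), and differed by 0.041 under KD, which was not called. ECH1 was higher under OE by 0.096, while ACOT9 (-0.15) and the amino acid carrier SLC25A29 (-0.12) were lower. Within that list the modified lines differed most in ACOT9 (0.18) and ETFDH (0.11), higher under OE than under KD, and in SLC25A29 (-0.25) and ECH1 (-0.16), lower under OE. The long-chain dehydrogenase ACADL was not analysed here.

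Branched-chain and odd-chain acyl-CoA oxidation held 14 genes, all with values, of which 6 were higher and 4 lower under KD, 8 higher and 1 lower under OE, and 5 higher and 6 lower in OE against KD. The propionyl-CoA carboxylase subunit PCCA and glutaryl-CoA dehydrogenase (GCDH) increased most under KD (both 0.22), and the hydratase AUH (-0.22) and the dehydrogenase ACAD8 (-0.18) decreased most. With block medians removed, AUH turned to 0.14 under KD and was called higher. ACADSB, the dehydrogenase for short branched chains, increased most under OE (0.20), followed by PCCA (0.12), and ACAD8 (-0.14) was the 1 gene called lower. With OE set against KD, AUH (0.34, not called with block medians removed) and ACADSB (0.19) increased most and the epimerase MCEE (-0.15) and GCDH (-0.11) decreased most.

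Ketone body metabolism held 5 genes, 4 with values, of which 3 were higher under KD and 2 were lower in OE against KD. BDH1, which interconverts acetoacetate and hydroxybutyrate, increased by 0.44 under KD and differed by 0.029 under OE, which was not called. Set against KD, the libraries labelled OE were lower in BDH1 (-0.41) and the transferase OXCT1 (-0.089).

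The peroxisomal pathway, which shortens chains that mitochondria handle poorly, was read from 19 genes, all with values. Under KD 9 were higher and 6 lower, under OE 6 and 3, and in OE against KD 6 and 6. AMACR (0.47, with 72.3% of its exonic bases shared with other genes) and the reductase DECR2 (0.30) increased most under KD, and CRAT, which is also in the shuttle list, and the lyase HACL1 (-0.46) decreased most. Under OE the oxidase ACOX2 (0.18) and EHHADH (0.14) increased most, the latter with its call lost without parental replicate 3 (0.099), and CROT (-0.15) decreased most. In OE against KD, CRAT and the thiolase ACAA1 (0.49) increased most and AMACR (-0.37) decreased most.

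Regulators of the pathway were read from 17 genes, all with values, of which 8 were higher and 5 lower under KD, 5 and 5 under OE, and 6 and 6 in OE against KD. PPARGC1A, a coactivator of mitochondrial genes, was at 7.26, 7.29 and 7.26 in the parental libraries, at 7.89, 7.88 and 7.90 under KD and at 7.43, 7.55 and 7.45 under OE, with the KD libraries highest and no overlap between groups. It increased by 0.62 under KD (SE 0.041, limma adjusted p = 1.3e-14) and by 0.21 under OE, while its relative PPARGC1B was lower, by differences of -0.52 and -0.27. The nuclear receptors RXRA (-0.87) and PPARG (-0.59) decreased most under KD, and PPARA, the receptor best known for inducing the pathway in liver, increased by 0.16 under KD and differed by 0.064 under OE, which was called only without OE replicate 3 (0.11). Under OE the kinase subunit PRKAA2 (0.36) and ACACA (0.24) increased most, and RXRA decreased by a difference of -0.17, a call lost with block medians removed (-0.068). In OE against KD, RXRA (0.70, 0.46 with block medians removed) and PPARG (0.53, 0.19 with these removed) increased most and PPARGC1A (-0.42) and MLYCD (-0.30) decreased most.

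Malonyl-CoA, the inhibitor of CPT1, is made by ACACA and ACACB and removed by MLYCD. ACACA was higher by 0.16 under KD and 0.24 under OE, and MLYCD by 0.42 and 0.12, all of them called. ACACB differed by 0.025 (95% confidence interval -0.051 to 0.10) and 0.028 (-0.048 to 0.10), and neither was called.

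Genes of the lipid droplet and of lipolysis (14 listed, 11 with values) were called higher in 1 and lower in 5 cases under KD, 3 and 4 under OE, and 4 and 5 in OE against KD. PLIN2, the main coat protein of droplets outside fat tissue, was at 14.59, 14.59 and 14.57 in the parental libraries, at 14.12, 14.13 and 14.13 under KD and at 14.71, 14.70 and 14.70 under OE, so that the 3 groups stood apart. Its differences from parental were -0.46 under KD (SE 0.011, limma adjusted p = 4.1e-26) and 0.12 under OE (SE 0.011, limma adjusted p = 1.1e-10). PLIN4 decreased more under KD (-0.50) and CIDEC was the 1 gene called higher there (0.42, and 0.75 with block medians removed). Under OE, CIDEC was higher by 0.12, a call lost without OE replicate 1 (0.098), parental replicate 2 (0.11) or parental replicate 3 (0.12) and with block medians removed (0.11), while the lipase MGLL (-0.32) and the acyltransferase DGAT2 (-0.23) decreased most. Relative to KD, the label OE had the largest increases in PLIN2 (0.58) and PLIN4 (0.50) and the largest decreases in CIDEC (-0.30, -0.64 with block medians removed) and DGAT2 (-0.24).

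Of 10 genes known to respond to PPAR receptors 7 had values, CPT1A and PLIN2 among them. Under KD 1 was called higher, the fatty acid binding protein FABP3 (0.21), and 2 lower, PLIN2 and UCP3 (-0.13), the latter not called without KD replicate 2 (-0.12) or parental replicate 3 (-0.11). Under OE 4 were called higher and none lower, with ANGPTL4, a secreted inhibitor of lipoprotein lipase, at 0.54 (SE 0.021, limma adjusted p = 1.3e-19) and FABP3 at 0.18. With OE set against KD, 3 were called higher, CPT1A, PLIN2 and ANGPTL4 (0.49), and none lower.

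**Figure D4:**
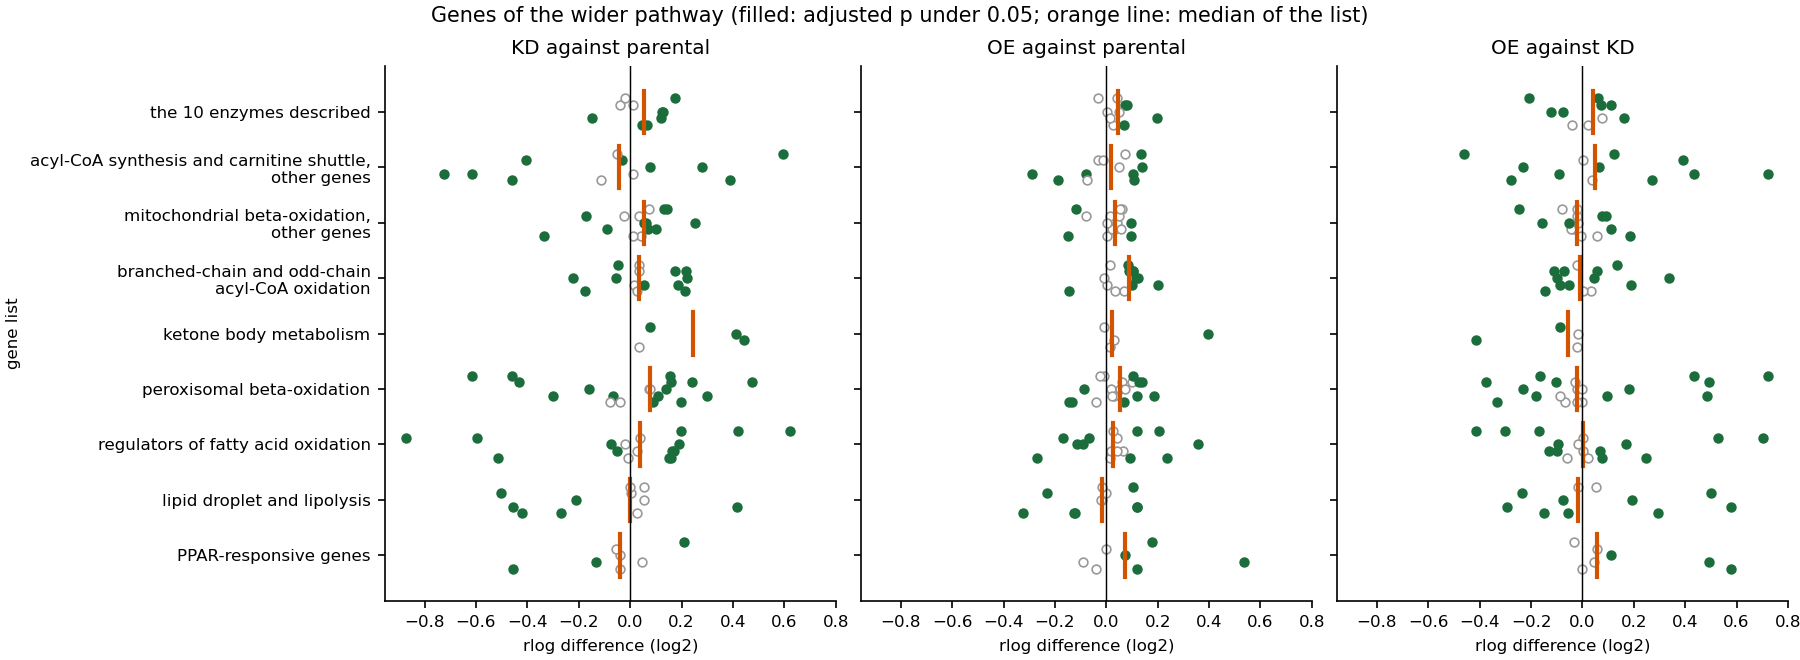
Rlog differences (horizontal axis, log2) of the genes of each list in the 3 comparisons, 1 point per gene, filled where the adjusted p was under 0.05, with an orange line at the median of the list. The 10 enzymes lie within 0.21 of 0, while regulators reach -0.87 (RXRA) and 0.62 (PPARGC1A) in KD against parental.

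Several of these genes lie where their neighbours moved with them under the label KD. Among genes whose mean rlog was 8 or more, the median difference was -0.30 over the 137 genes of the 20-Mb block of SLC25A20 on chromosome 3, -0.33 in that of PPARG and HACL1 and -0.24 in that of ACAA1 on the same chromosome, and -0.35 over 163 genes in that of CRAT, SLC27A4 and RXRA on chromosome 9. With block medians removed the differences under KD were -0.099 for SLC25A20, -0.27 for CRAT, -0.38 for SLC27A4, -0.53 for RXRA, -0.27 for PPARG, -0.13 for HACL1 and -0.19 for ACAA1, and all 7 were still called. AUH, on chromosome 9, turned from -0.22 to 0.14. In the other direction, BDH1 and EHHADH lie in a block of chromosome 3 with a median of 0.23, and with it removed BDH1 was at 0.21 and EHHADH, as fitted 0.24, at 0.0096. In OE against KD, block medians removed gave 0.090 for SLC25A20 in place of 0.39, 0.48 for CRAT, 0.19 for SLC27A4, 0.19 for ACAA1 and -0.19 for BDH1, all still called, and EHHADH turned from -0.10 to 0.12, called both ways. Of the other differences named above that stayed called, those that moved by more than 1.5 times were SLC27A4 (-0.19), MLYCD (0.19), SLC25A29 (-0.064), ACAD8 (-0.086) and CPT1A (0.11) under OE, ACAD8 (-0.10) under KD, and ACOT9 (0.11) and GCDH (-0.072) in OE against KD. Among the 10 enzymes the block medians under KD were smaller, from -0.059 for ACADS to 0.067 for HADH, and those of CPT2, ACADVL and ETFA were 0.00037, -0.00058 and 0.028.

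**Figure D5:**
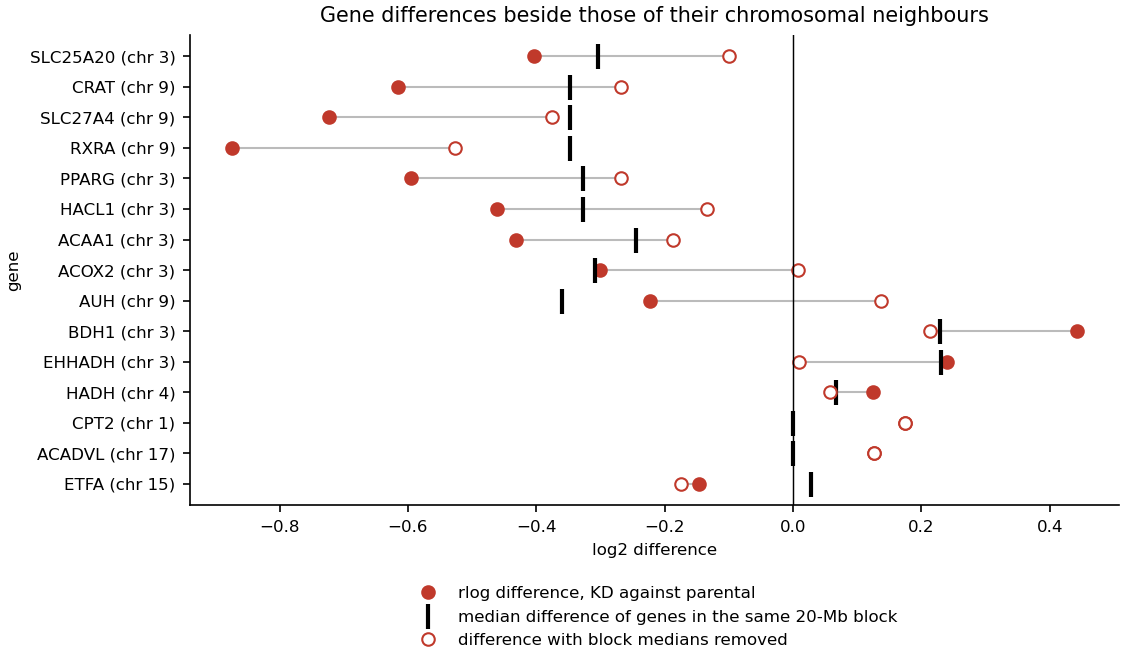
Differences of KD against parental (horizontal axis, log2) for 15 genes picked after their values were seen, with a filled circle for the difference as fitted, a bar for the median difference of genes in the same 20-Mb block and an open circle for the difference with block medians removed. The open circles of ACOX2 and EHHADH lie near 0, that of AUH on the other side of 0, and those of CPT2 and ACADVL on their filled circles.

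CPT2 had the widest range of group means among the 10 enzymes, and the 4 genes with the most similar profile were sought among all genes with a symbol, by the root mean square difference of gene-centred rlog values over the 9 libraries. They were MESP2 (0.0289), TBX20 (0.0293), DSG2 (0.0315) and ABCC4 (0.0326). MESP2 and TBX20 are low genes with mean rlog values of 3.17 and 4.25, while DSG2 was at 10.46 and ABCC4 at 11.24. Each was highest in the libraries labelled KD and lowest in those labelled OE by group means, as CPT2 was.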

How the data were processed

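RNA of 9 IMR-32 libraries (3 parental, 3 labelled KD, 3 labelled OE) was prepared with a kit that does not mark the strand and sequenced on a NovaSeq instrument. The authors trimmed reads with cutadapt (quality under 20 and reads under 36 bases removed), used HISAT2 for mapping to GRCh38 and featureCounts of Subread for counting, removed genes with a total count under 10 and deposited regularized log2 values of DESeq2 for 22290 genes. Tool versions and the annotation release are not given in the sources used here. Reads were paired, and a nominal coverage is stated, but not the depth of each library.

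Group differences were tested on all 22290 genes and 9 libraries with limma 3.58.1 (R 4.3.3, variance trend), with Benjamini-Hochberg adjustment over all genes and a call at an adjusted p under 0.05. The procedure was tested on simulated data. Symbols and coordinates came from GENCODE release 44 (22195 identifiers found) and sequences from RefSeq. Reads per kb used the canonical transcript. Block medians were taken per library over genes whose mean rlog was 8 or more in 20-Mb blocks with at least 10 such genes. The members, the lists and the rule for naming genes were chosen with earlier results of these data known. From each list up to 2 increases and 2 decreases per comparison were named, the largest among called genes without overlap between groups, and SLC25A20, ETFB, ETFDH, ACAA2, ACADL, ACACA, ACACB, MLYCD, PPARA and PPARGC1A in any case. PRRX1 and the genes of the marker lists were named after their values were seen. The alternatives were no variance trend, a mean rlog of at least 5, a replicate block, the 6 libraries of the groups compared, median centring, quantile normalization, block medians removed, each library left out, an adjusted p under 0.01 and the added requirement that groups do not overlap.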

Additional observations from a re-analysis of the deposited data

How the results depend on the processing

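Of the 10 enzymes, 7, 4 and 7 were called in KD, OE and OE against KD. At an adjusted p under 0.01 the KD count was 4 (3 higher, 1 lower), where the stricter threshold itself removes calls. Over 16 alternative fits each, 146 of 160 member results for KD, 154 of 160 for OE and 155 of 160 for OE against KD kept their direction and their side of the threshold. The calls of CPT2, ACADVL and ETFA under KD, of ACADS, HADHA and CPT1A under OE, and of CPT2, ACADVL, ETFA, CPT1A, HADHA and HADHB in OE against KD were lost under none of these 16.

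With block medians removed, the sign changed in 28 of 306 values of the 10 enzymes and the 8 wider lists, 1 of them among the enzymes. Of the 28, 7 had been called, and 3 of these were called in both directions, AUH under KD (0.14) and EHHADH in OE against KD (0.12) among them. The others included ETFA under OE (-0.0041), ETFB under KD (-0.0092) and in OE against KD (0.045) and ACACB in OE against KD (-0.0098), none of them called, and ACOX2 under KD (0.0073), no longer called. With quantile normalization ACACB under KD was -0.0069, and the cause was not tested. With 1 library left out in turn, signs also changed among values that were not called: ACADVL under OE ranged from -0.011 to 0.014, TRAP1 under OE from -0.012 to 0.042, SLC25A20 under OE from -0.032 to 0.0039, ETFB from -0.00077 to 0.028 under KD, from -0.0073 to 0.021 under OE and from -0.018 to 0.0087 in OE against KD, and ACACB from -0.0091 to 0.065, from -0.0062 to 0.068 and from -0.019 to 0.015. TRAP1 under OE was called with block medians removed (0.064), with adjusted p from 0.0346 to 0.782 over its alternatives by limma.

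Libraries share replicate numbers across groups. The correlation of deviations from the group means between libraries of the same number was -0.0466, -0.0511 and 0.0127 for KD and parental, -0.0711, -0.00682 and -0.00713 for OE and parental, and 0.116, 0.0231 and 0.14 for OE and KD. Between libraries of different numbers it ran from -0.0279 to 0.0748, from -0.0409 to 0.0484 and from -0.139 to 0.026 in the same order. For OE and KD, the values 0.116 and 0.14 lay above that range. Nothing states that the numbers pair the libraries, and the main fit did not pair them. With the replicate number as a block, 7, 4 and 7 of the 10 enzymes and 12015, 7854 and 10623 of all genes were called, against 11980, 7764 and 10552 without it.

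The shrinkage of rlog values limits what can be read for genes with few reads, such as ETFB, and neither counts nor the depth of each library were available to set a limit of detection.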
